A study of Mus musculus with 2 samples.

Results

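Axon guidance ligands and receptors are the secreted and membrane-bound cues, and their receptors, that steer growing axons and migrating cells. The genes described here belong to the ephrin, Eph, semaphorin, plexin, neuropilin, Slit, Robo and Unc5 families and include Dcc. Every gene probe of the array whose deposited gene name belonged to one of these families was taken, which gave 118 of 41174 probes, for 64 of 27962 gene names. Total RNA came from 2 samples of R1, a mouse embryonic stem (ES) cell line. The day 6 sample was embryoid body (EB) cells, which are floating aggregates, after direct neural differentiation, and its labels call the cells neural precursors. The day 0 sample was undifferentiated ES cells. Per the labels, R1 cells were maintained on growth-arrested fibroblast feeders in 15% serum with leukaemia inhibitory factor (LIF) at 1000 U/ml, and how feeders were removed and which medium the day 6 cells had are not stated in them. Each group held 1 one-colour expression array, so no test between days was possible, every difference lacks a replicate check, and medium, feeders, aggregation and differentiation cannot be told apart.

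Slit proteins are secreted repellents read by Robo receptors, and netrins act through Dcc and the Unc5 receptors. Ephrins are membrane-anchored ligands of the Eph receptor tyrosine kinases, in which the A class binds mostly A ephrins and the B class mostly B ephrins, and both partners can signal. Class 3 semaphorins are secreted and act through neuropilins paired with plexins, while most membrane-bound semaphorins bind plexins directly. In the early nervous system these families set boundaries between cell groups, guide axons across or away from the midline and take part in cell migration. Several members also act outside the nervous system, in blood vessels and epithelia.

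Each value of a family gene below rests on 1 spot of a probe 60 bases long. The sequences carry the measurement, so the first 30 bases of the deposited probe are shown for the 4 genes with the lowest differences, the 3 with the highest among those measured on both arrays, the 3 with the highest bounds, and Robo3 as the neighbour of Robo4. Positions are those of the array's build, mm7, and cover the whole probe. These 4 probes had much less signal on day 6.
Epha2 (NM_010139, chr4:140707665-140707724, plus strand): agcccctttggacaaatgtcgctgtcagtg
Robo4 (NM_028783, chr9:37342570-37342629, plus strand): accaatgcgctattctcattctaccgccac
Epha1 (NM_023580, chr6:42301566-42301625, minus strand): tcaatcagaactctgcctttgaaccaagga
Unc5b (NM_029770, chr10:60282808-60282867, minus strand): ttagggaacgcaaatgatttattatccaga

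The next 7 probes had much more signal on day 6, and those for Robo2, Epha3 and Ephb1 were not well above background on day 0.
Sema6d (NM_172537, chr2:124408258-124408317, plus strand): tattaatcccagcgtggtaactctgtgtga
Plxna2 (AK028562, chr1:194371060-194371119, plus strand): catgtacctattgtaaatatgaaactccta
Slit2 (NM_178804, chr5:47631141-47631200, plus strand): cctccttcaggacacttgcagaaggtttgc
Robo3 (NM_011248, chr9:37344793-37344852, minus strand): cggttttagttgtcttgggaatcagagaac
Robo2 (NM_175549, chr16:73917461-73917520, minus strand): ttgaatatgtgttaaccatccatattaaga
Epha3 (NM_010140, chr16:63493624-63493683, minus strand): acccagagaattatatgttcttttctacaa
Ephb1 (NM_173447, chr9:101612306-101612365, minus strand): tctttgataagatctgaagaaaagaagagg

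A probe was counted as measured where the scanner software marked it well above background on at least 1 array. By this filter 97 of the 118 probes and 59 of the 64 genes were measured, 51 genes on both arrays and 8 on day 6 only. Those 8 passed because of day 6 and could only be higher there, and for them a fold is a lower bound, set against the higher of the lowest signal well above background on day 0 (102 intensity units) and the probe's own signal. The remaining 5 genes, Dcc, Epha6, Epha8, Plxnb3 and Unc5d, stayed below that limit on both arrays. Their probes read from 17.4 to 74.8 intensity units on day 6 and from 20.5 to 85.5 on day 0. Plxnd1 was not analysed here.

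Most of the measured guidance genes had more signal on day 6. A gene is called higher or lower below where its scaled day 6 signal stood 2-fold or more above or beneath that of day 0. Of the 59 genes, 33 (55.9%) were called higher, where 17.8% of all 14967 measured genes of the array were, and 8 (13.6%) were called lower, where 20.1% of all genes were. Among the 51 genes measured on both arrays, 26 were called higher against a background of 16.4%, and 8 lower against 18.0%. Raising the threshold to 4-fold left 19 of the 59 higher and 5 lower, with backgrounds of 7.35% and 8.35%. Counted by probe, 55 of 97 were higher and 10 lower, with backgrounds of 17.5% and 18.1%. The median log2 difference (day 6 minus day 0) was 1.37 over the 59 genes and 1.08 over the 51, beside -0.095 over all genes and -0.12 over all genes measured on both arrays. By role, 17 of 31 ligands and 16 of 28 receptors were called higher, and 4 of each lower. Of those called higher, 1 ligand and 6 receptors were seen on day 6 only and could only be higher. Among genes measured on both arrays, 16 of 30 ligands and 10 of 21 receptors were called higher, with median log2 differences of 1.21 and 0.72. The scanner software's error of a difference had a median SD of 0.21 log2 units over these genes. It holds no variation between cultures.

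**Figure D1:**
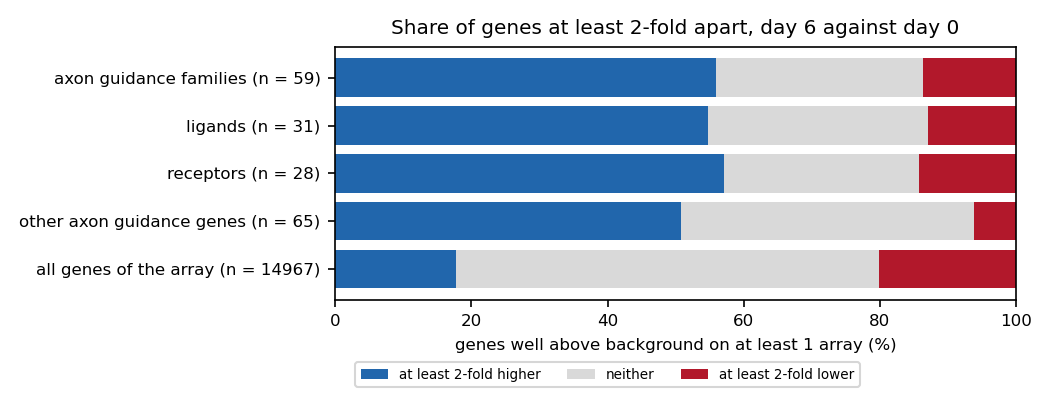
Share of genes (x axis, percent of those well above background on at least 1 array) called higher, called lower or neither on day 6, at 2-fold, for the measured genes of the guidance families, their ligands and receptors, a list of other axon guidance genes, and all genes of the array. The families had 55.9% higher and 13.6% lower, and all genes had 17.8% higher and 20.1% lower.

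All 3 Slit genes, which code for secreted midline repellents, were called higher, where 17.8% of all genes were. Slit2 read 21722 intensity units on day 6 and 1117 on day 0, and its log2 difference was 4.06 ± 0.21 (software error SD), or 16.7-fold. Slit1 read 1020 and 219 on day 6 and day 0, which was 3.98-fold higher. Slit3 read 10717 on day 6 and 3563 on day 0, a 2.58-fold difference. For Slit2, another probe gave 15.7-fold. A further 2 of its 6 probes, which carry other accessions, were well above background on day 6 only, with bounds of 4.86-fold and 2.37-fold, and the last 2 on neither array.

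The Robo receptors split. Robo2, a neuronal Slit receptor, read 2039 intensity units on day 6 and 21.8 on day 0, where it was not well above background, and was at least 17.1-fold higher. Its 3 further measured probes gave bounds of 5.25-fold, 3.23-fold and 1.72-fold. Robo3, known for letting commissural axons reach the midline, read 5093 on day 6 and 661 on day 0, and its log2 difference was 2.72 ± 0.21 or 6.60-fold. A further Robo3 probe gave a log2 difference of 2.40. Robo1, a broadly expressed Slit receptor, read 3798 and 2148 on day 6 and day 0 and stayed within 2-fold (log2 difference 0.60 ± 0.20). Robo4, known as the endothelial Robo, went the other way, with 176 intensity units on day 6 and 3686 on day 0, a 24.4-fold lower signal (log2 difference -4.61 ± 0.26).

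Robo3 and Robo4 are neighbours. Their nearest probes lie 2164 bases apart on chromosome 9, on opposite strands, and the Robo4 signal was 24.4-fold lower on day 6 while the Robo3 signal was 6.60-fold higher. Of the 4 pairs of neighbouring family genes with probes under 200000 bases apart, this was the only one with a member called in each direction. The other pairs were Efna1 with Efna3, Efna3 with Efna4, and Sema3b with Sema3f, of which only the last pair held called genes, both higher (log2 differences 1.11 and 1.86).

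The netrin receptors also divided. Unc5a, a receptor for repulsion by netrin, read 3161 intensity units on day 6 and 178 on day 0, and its log2 difference was 3.93 ± 0.27 or 15.2-fold. Unc5c, of the same kind, read 792 on day 6 and 113 on day 0, where it was not well above background, and was at least 6.02-fold higher. Unc5b, which is also known from blood vessels, read 1791 on day 6 and 16038 on day 0, so it was 10.5-fold lower (log2 difference -3.39 ± 0.20). Signal of Dcc, the receptor for attraction by netrin, was 44.1 on day 6 and 85.5 on day 0, below the background limit on both arrays. The ligand gene Ntn1 (netrin 1), which is outside the families chosen, read 5743 on day 6 and 601 on day 0 and was 8.18-fold higher.

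**Figure D2:**
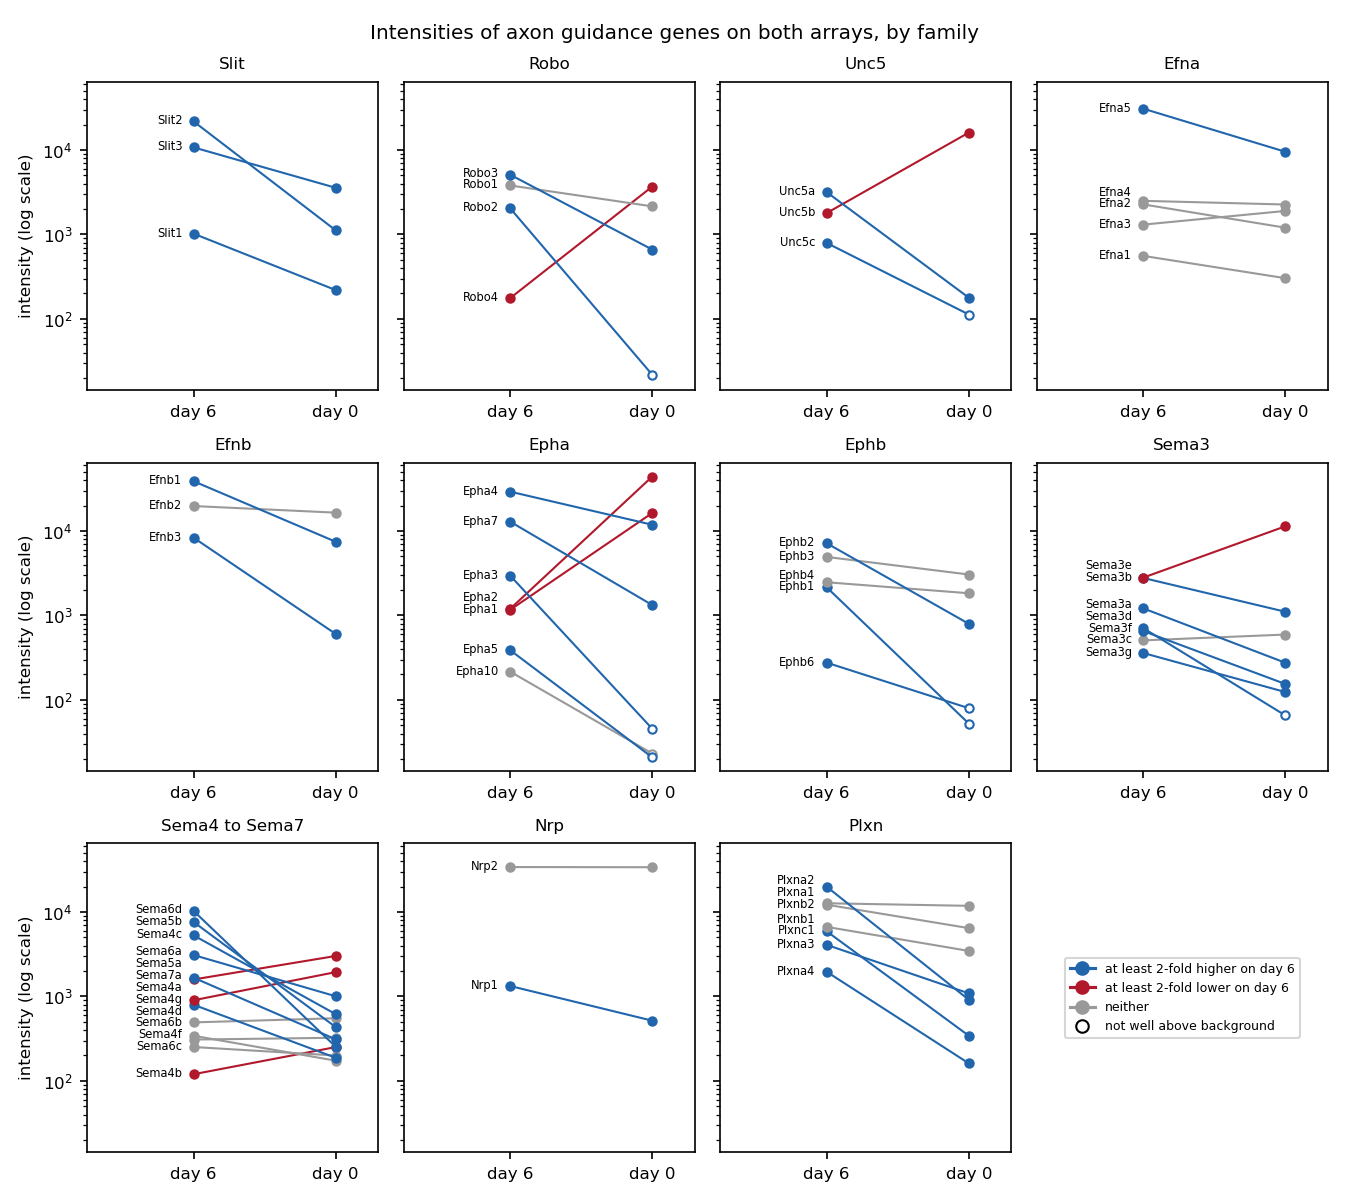
Intensity (y axis, log scale, arbitrary units) of each measured gene's brightest probe on the day 6 array and the day 0 array, 1 panel per family. Lines join the 2 arrays, colours mark genes called higher, called lower or neither, and open points were not well above background; the lines of Robo4, Unc5b, Epha1 and Epha2 rise towards day 0 while the other lines of their panels fall.

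The A class Eph receptors held the lowest value of any guidance gene and, by its bound, one of the highest. Epha2, an Eph receptor known from epithelia and early embryos, read 1197 intensity units on day 6 and 44038 on day 0, and its log2 difference was -5.42 ± 0.21, or 43.0-fold lower. Epha1, the receptor after which the family was named, read 1166 on day 6 and 16314 on day 0, 16.3-fold lower (log2 difference -4.03 ± 0.21). In the other direction, Epha3 read 2957 on day 6 and 45.5 on day 0, not well above background there, and was at least 24.8-fold higher. Epha7, an Eph receptor of the developing brain, read 12866 on day 6 and 1327 on day 0, which was 8.31-fold higher (log2 difference 3.05 ± 0.21).

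Of the 3 other measured A class receptors, 2 were seen on day 6 only. Epha5, an Eph receptor mainly of neurons, read 388 intensity units on day 6 and 20.9 on day 0, which makes it at least 3.25-fold higher, although 2 further probes of the gene were dim on both arrays. Epha4, which binds ephrins of both classes, read 29162 on day 6 and 11832 on day 0, and its log2 difference was 1.08 ± 0.20, just past 2-fold. Its other probe, measured on both arrays, gave 0.87, and median scaling gave 0.96, both short of 2-fold. Epha10, a family member without kinase activity, read 216 on day 6 and 23.2 on day 0, and its bound was 1.81-fold. Of the 7 measured A class receptors, 4 (57.1%) were called higher and 2 (28.6%) lower, where 17.8% and 20.1% of all genes were. The family median of 2.997 log2 units rests on the genes seen on day 6 only: over the 4 genes measured on both arrays it was -1.48.

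Of the 5 B class receptors, 3 (60.0%) were called higher, where 17.8% of all genes were, and none lower. Of these, Ephb1 and Ephb6 were seen on day 6 only and could only be higher. Among the 3 B class receptors measured on both arrays, 1 was called higher, against a background of 16.4%, and their median log2 difference was 0.47. Ephb1, a receptor known for guiding axons at the optic chiasm, read 2148 intensity units on day 6 and 52.5 on day 0, not well above background there, and was at least 17.99-fold higher. Ephb2 read 7148 on day 6 and 795 on day 0, a 7.70-fold higher signal (log2 difference 2.94 ± 0.21), and its other probe gave a log2 difference of 2.39. Ephb6, which lacks kinase activity, read 276 on day 6 and 79.8 on day 0, not well above background there, and was at least 2.31-fold higher. Ephb3 and Ephb4, which are also expressed in epithelia and veins, stayed within 2-fold, with log2 differences of 0.47 ± 0.20 and 0.21 ± 0.20.

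Among the ligands of these receptors, 2 of 3 B class ephrins, which span the membrane, and 1 of 5 A class ephrins, which are lipid-anchored, were called higher, and none lower. The A class share of 20.0% was near the 17.8% of all genes called higher. Efnb3, the ephrin of the neural tube midline, read 8309 intensity units on day 6 and 603 on day 0, 11.8-fold higher. Efnb1 read 38741 on day 6 and 7444 on day 0, 4.46-fold higher. Efnb2, known also from arteries, had nearly the same scaled signal on both days (19704 on day 6 and 16461 on day 0, log2 difference 0.04 ± 0.20), and its dimmer probe gave a log2 difference of 0.06. Of the 5 A class ephrin genes, Efna5, a ligand of topographic axon maps, was the only one called: it read 30788 on day 6 and 9512 on day 0, 2.77-fold higher. Its other probe, measured on day 6 only, had a bound of 1.67-fold, short of 2-fold. Efna1 and Efna2 had log2 differences of 0.65 ± 0.23 and 0.69 ± 0.21, Efna4 of -0.08 ± 0.20 and Efna3 of -0.76 ± 0.21.

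**Figure D3:**
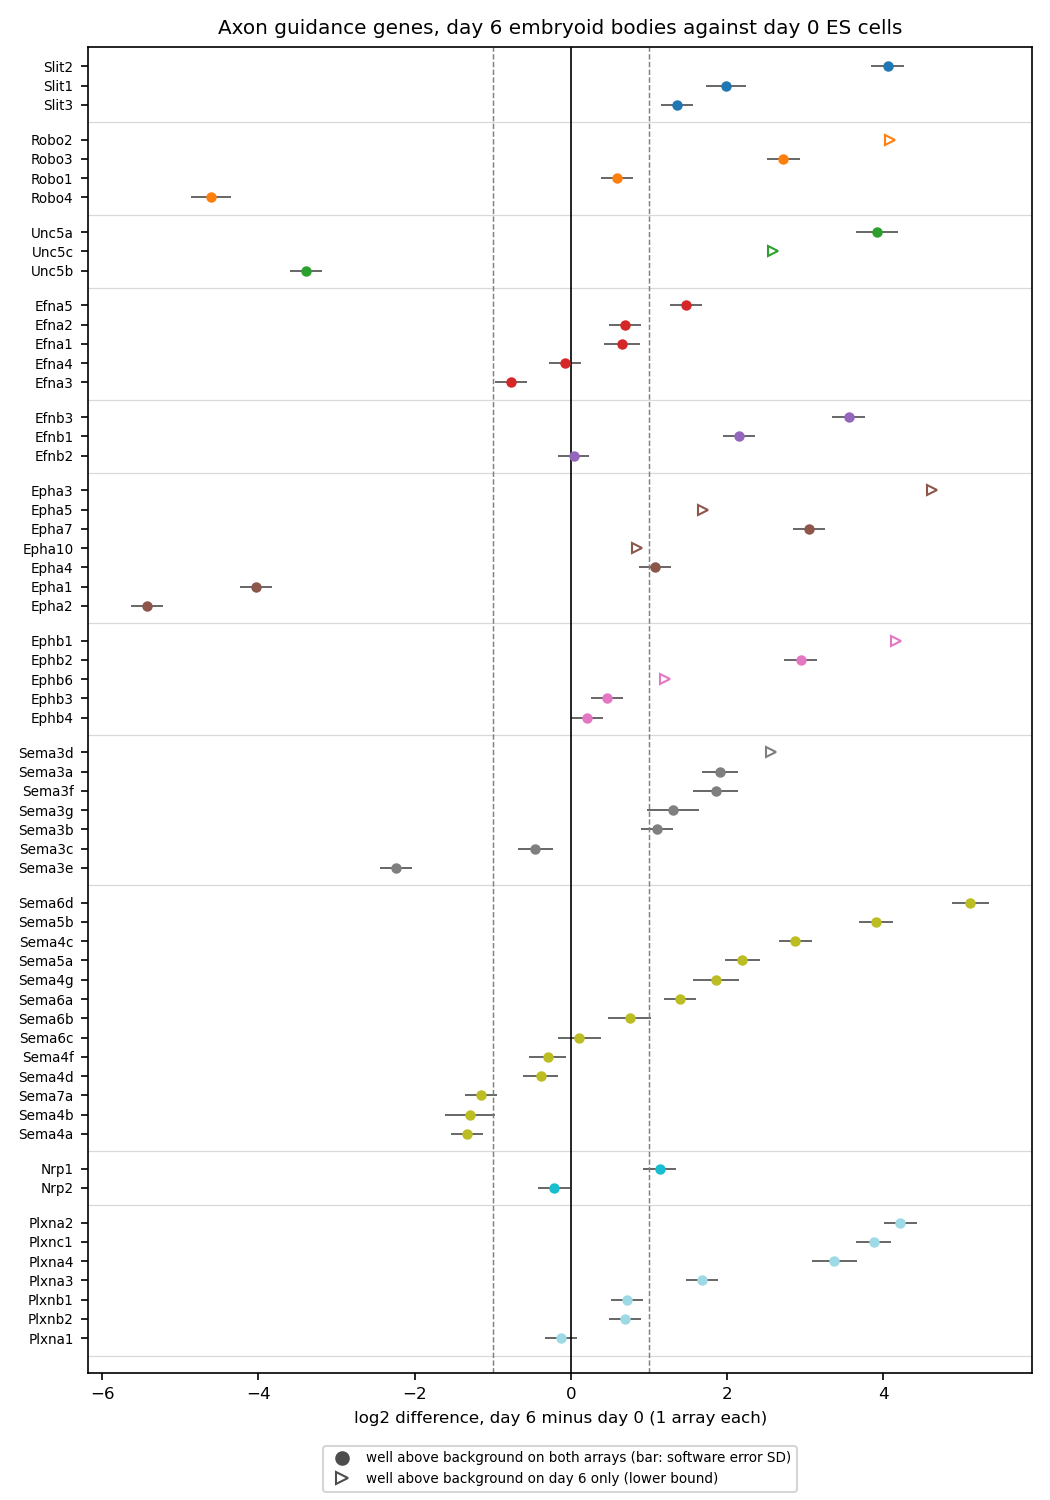
Log2 difference (x axis, day 6 minus day 0) of each of the 59 measured genes, in rows grouped by family, with bars for the software error SD. Triangles are lower bounds for the 8 genes well above background on day 6 only, dashed lines mark 2-fold, and values run from -5.42 (Epha2) to 5.12 (Sema6d) among genes measured on both arrays.

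Of the 7 secreted class 3 semaphorins, which act mainly as repellents, 5 (71.4%) were called higher and 1 (14.3%) lower, where 17.8% and 20.1% of all genes were. Sema3d was seen on day 6 only and could only be higher. Among the 6 measured on both arrays, 4 were called higher and 1 lower, with backgrounds of 16.4% and 18.0%. Sema3a, the prototype that collapses growth cones, read 1212 intensity units on day 6 and 275 on day 0, 3.77-fold higher. Sema3d read 707 on day 6 and 65.5 on day 0, where it was not well above background, and was at least 5.92-fold higher. Sema3f, a ligand of Nrp2, was 3.62-fold higher, Sema3g 2.48-fold and Sema3b 2.15-fold, with day 6 intensities of 653, 359 and 2776 and day 0 intensities of 154, 124 and 1105. The Sema3b call was lost under median scaling (log2 difference 0.99). That of Sema3g was lost with normexp background correction (0.83) and without background subtraction (0.76). Sema3c had a log2 difference of -0.45 ± 0.22. Sema3e, a semaphorin that acts without a neuropilin in blood vessels, was the exception: it read 2802 on day 6 and 11350 on day 0, 4.73-fold lower (log2 difference -2.24 ± 0.20), and another probe measured on both arrays gave -2.76.

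Of the 13 membrane-bound semaphorins of classes 4 to 7, 6 (46.2%) were called higher and 3 (23.1%) lower, where 17.8% and 20.1% of all genes were. The lower share was thus near that of all genes. Among genes of the chosen families measured on both arrays, Sema6d, a transmembrane ligand of class A plexins, had the largest increase. It read 10266 intensity units on day 6 and 253 on day 0, and its log2 difference was 5.12 ± 0.24 or 34.7-fold. Sema6a, of the same class, read 3087 on day 6 and 1004 on day 0, 2.63-fold higher, but its other probe measured on both arrays read 124 on both days, a log2 difference of -0.22 ± 0.40. Sema6b and Sema6c stayed within 2-fold (log2 differences 0.76 ± 0.28 and 0.11 ± 0.27).

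Both class 5 genes, whose proteins carry thrombospondin repeats, were called higher, where 17.8% of all genes were. Sema5b read 7592 intensity units on day 6 and 434 on day 0, which was 15.0-fold, and Sema5a read 1665 on day 6 and 310 on day 0, which was 4.59-fold. Other Sema5b probes gave log2 differences of 3.62 and 0.64, the latter within 2-fold. A further Sema5a probe was dim on both arrays (37.4 on day 6 and 20.7 on day 0). In class 4, Sema4c, a ligand of Plxnb2, was 7.34-fold higher (5277 on day 6 and 616 on day 0) and Sema4g 3.63-fold higher (796 on day 6 and 188 on day 0). The same class held Sema4a, known also from immune cells, which was 2.51-fold lower (901 on day 6 and 1939 on day 0), and Sema4b, 2.45-fold lower with low signals (120 on day 6 and 251 on day 0). Sema4d, a ligand of Plxnb1, and Sema4f had log2 differences of -0.39 ± 0.22 and -0.29 ± 0.24, and a further Sema4d probe, measured on day 0 only, was at least 2.68-fold lower. Sema7a, a lipid-anchored semaphorin that binds Plxnc1, read 1586 on day 6 and 3011 on day 0, 2.22-fold lower.

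Plxnc1, the receptor of Sema7a, differed in the other direction. It read 5893 intensity units on day 6 and 342 on day 0, and its log2 difference was 3.88 ± 0.22 or 14.7-fold higher. Class A plexins, which pair with neuropilins to read class 3 semaphorins, were called higher in 3 of 4 genes, where 17.8% of all genes were. Plxna2 read 19866 on day 6 and 912 on day 0, 18.6-fold higher, and its 3 probes gave log2 differences from 4.06 to 4.23. Plxna4 read 1955 on day 6 and 161 on day 0, 10.4-fold higher, and Plxna3 read 4075 and 1087 on these days, 3.21-fold higher. Plxna1 read 12669 on day 6 and 11807 on day 0, and its log2 difference was -0.12 ± 0.20.

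Of the measured class B plexins and neuropilins, only Nrp1 was called, and that call was lost with normexp background correction (log2 difference 0.99) and without background subtraction (0.98). Plxnb1 and Plxnb2, receptors of class 4 semaphorins, had log2 differences of 0.72 ± 0.20 and 0.70 ± 0.20, and another Plxnb1 probe gave 1.55, which is past 2-fold. Nrp1, a co-receptor for Sema3a and for vascular endothelial growth factor, read 1328 intensity units on day 6 and 516 on day 0, 2.20-fold higher. Nrp2, the co-receptor for Sema3f, read 33984 on day 6 and 33817 on day 0, and its log2 difference was -0.22 ± 0.20 after scaling.

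Several genes had more than 1 probe, which gives a check on each difference within the same RNA. Of 17 genes with several probes measured on both arrays, 14 had probes of 1 sign, and the exceptions were Plxna1, Sema3c and Sema6a. The median spread between their probes was 0.33 log2 units, and 3 genes had probes more than 1 log2 unit apart: Sema4c, Sema5b and Sema6a. The Sema5b probe that starts at position 35338889 gave a log2 difference of 0.64, while the other Sema5b probes gave 3.62 and 3.91. For Sema4c the probes gave 2.87 and 1.45, the dimmer one being lower. Nrp2 is shown with them because its probe for NM_010939 read 19.6 on day 6 and 21.99 on day 0, not well above background on either, while its probe for BC057028 read 33984 on day 6 and 33817 on day 0. These are the first 30 bases of the probes, as deposited, with the strand of the array's annotation.
Sema5b (NM_013661, chr16:35339710-35339769, plus strand): ctgagctgtggacctattgggtatgtgagg
Sema5b (NM_013661, chr16:35338889-35338948, plus strand): actggtgtgtcctgcttcctggtttctggg
Sema5b (BC052397, chr16:35340359-35340418, plus strand): ctgctacagcaacaaaaaggatgttaagct
Sema4c (S79463, chr1:36790599-36790658, minus strand): tgcaaggaagaggtttcaagatgtgggcgt
Sema4c (S79463, chr1:36791057-36791116, minus strand): ctctgccttctccaactcggctccacctag
Nrp2 (NM_010939, chr1:63056657-63056716, plus strand): gtaccttgtatttttagcagaattcatgct
Nrp2 (BC057028, chr1:63059217-63059276, plus strand): tgagccagatcacgggaactcgagagcttt

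**Figure D4:**
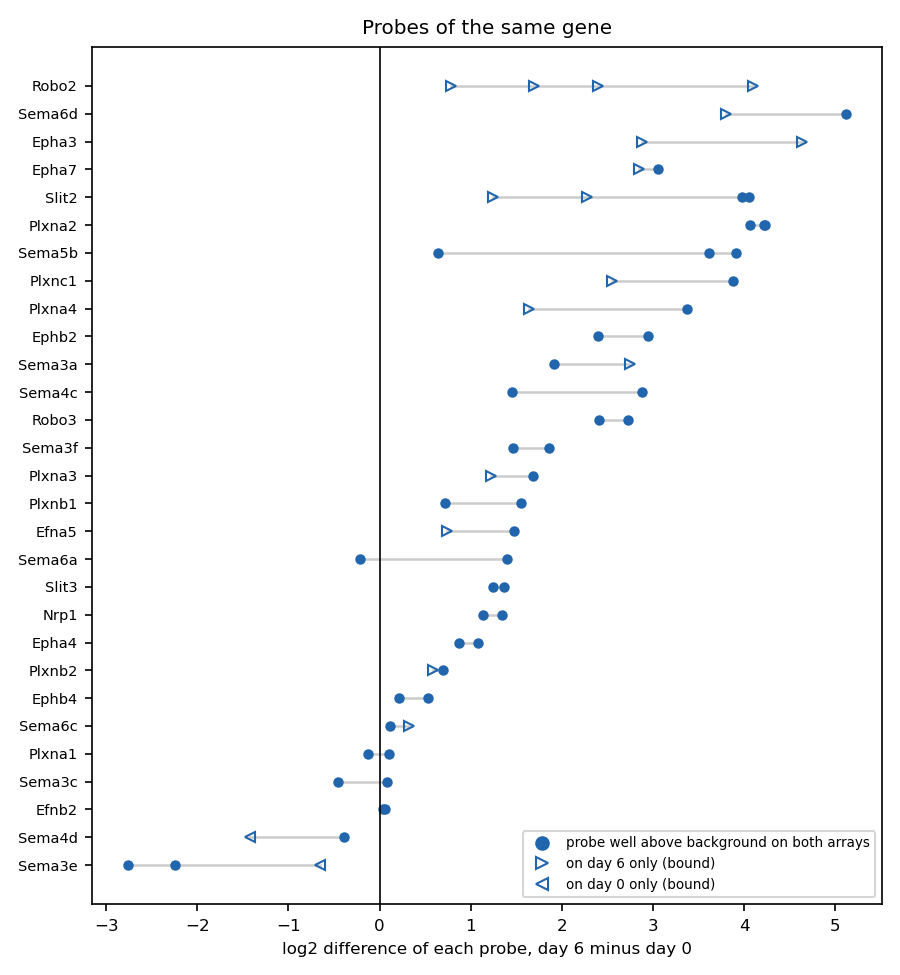
Log2 difference (x axis, day 6 minus day 0) of every measured probe of the guidance genes that have several, 1 row per gene, with circles for probes well above background on both arrays and triangles for bounds. Probes of Plxna2, Slit3 and Efnb2 lie close together, while those of Sema5b, Sema4c and Sema6a lie over 1 log2 unit apart; probes whose bound gave no fold are not drawn.

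Guidance genes outside the chosen families were described from a list of 69 other ligands, receptors and signalling genes. Of its 65 measured genes, 33 (50.8%) were called higher and 4 (6.15%) lower, where 17.8% and 20.1% of all genes were, and the median log2 difference was 1.05. The 4 lower genes were Flrt2, Mical2, Ptk7 and Vasp. The ligand and co-receptor gene Rgma, which codes for a repulsive guidance molecule, read 86225 intensity units on day 6 and 1712 on day 0, 43.1-fold higher, and its receptor gene Neo1 had a log2 difference of 0.65 ± 0.20. Srgap3, a regulator that acts downstream of Robo, was 33.6-fold higher (24228 on day 6 and 617 on day 0), while its relative Srgap2 had a log2 difference of 0.11. The chemokine receptor Cxcr4 was 22.1-fold higher. Of the 5 genes of the Crmp family, of which Dpysl2 is known to carry Sema3a signals, Dpysl4 was 23.2-fold higher, Dpysl2 7.08-fold, Dpysl3 3.01-fold and Crmp1 2.07-fold, and Dpysl5 had a log2 difference of 0.82. Mical2, of the semaphorin effector family Mical, was 8.82-fold lower (158 on day 6 and 1191 on day 0), the only gene of this list past 4-fold in that direction.

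Markers of 7 cell types that the cultures could hold were read on the same arrays. Of all measured genes of the array, 17.8% were called higher and 20.1% lower. In bulk RNA, fewer cells of a type and less RNA per cell cannot be told apart. Neural progenitor markers were called higher in 6 of 9 genes, with summed levels of 85.7 times the array's 75th percentile on day 6 and 27.9 times on day 0, while Nes, Sox2 and Msi1 stayed within 2-fold. Pax3 and Olig2, among those called higher, were not well above background on day 0. Neuron markers were called higher in 8 of 9 genes, with summed levels of 67.4 on day 6 and 12 on day 0, and Dcx, Nhlh1 and Isl1 were not well above background on day 0. Pluripotency markers were called lower in 7 of 7, with summed levels of 7.22 on day 6 and 284 on day 0. Feeder fibroblast markers were lower in 7 of 12 and higher in 1, with summed levels of 7.85 on day 6 and 38.2 on day 0. Endoderm markers were higher in 2 of 4, with summed levels of 11.9 on day 6 and 0.343 on day 0, and Foxa2, which floor plate cells also express, was 104.5-fold higher. Primitive streak and mesoderm markers were higher in 1 of 4 and lower in 1, with summed levels of 1.62 on day 6 and 1.95 on day 0. Endothelial markers were called lower in 4 of 5 measured genes, with summed levels of 0.369 on day 6 and 1.92 on day 0. In this list, Pecam1 and Tek were not well above background on day 6, Cdh5 had a log2 difference of 0.54 ± 0.28, and Tie1 was dim on both arrays. Of the guidance genes described above as also known from blood vessels, Robo4, Unc5b and Sema3e were called lower and Nrp1 higher. Efnb2, Ephb3 and Ephb4 stayed within 2-fold. This set was picked with the values known and is not a full list of such genes. The part of any of these cell types in the differences was not tested.

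Promoter sequence was compared between these genes by counting CG dinucleotides, the sites of DNA methylation, in windows of 300 bases from RefSeq (GRCm38.p6) that run from 250 bases before the transcript start to 50 after it. The letters CG read the same on both strands. Windows were found for 55 of the 64 genes, 71 in all. Their median was 19 CG, beside 13 over 21263 windows of protein-coding genes, and 76.1% of them held at least 10 CG, beside 56.8% of all windows. The 12 windows of genes called lower had a median of 12.5 CG, the 32 windows of genes called higher a median of 21, and the 24 windows of genes within 2-fold a median of 20.5. Of the 12 windows, 4 belong to Sema4a. Counts overlapped between the directions: among genes called lower Robo4 had 2 CG and Unc5b had 36, and among genes called higher Sema3a had 2 and Slit2 had 30. The windows shown are those of the neighbours Robo3 and Robo4 (17 and 2 CG), Slit2 (30) and Epha2 (10). This is a description of the letters in these windows, and methylation was not measured. In the windows below, read 5′ to 3′ in the direction of the gene, capitals mark CG.
Robo3 (GRCm38.p6, chr9:37433126-37433425, minus strand): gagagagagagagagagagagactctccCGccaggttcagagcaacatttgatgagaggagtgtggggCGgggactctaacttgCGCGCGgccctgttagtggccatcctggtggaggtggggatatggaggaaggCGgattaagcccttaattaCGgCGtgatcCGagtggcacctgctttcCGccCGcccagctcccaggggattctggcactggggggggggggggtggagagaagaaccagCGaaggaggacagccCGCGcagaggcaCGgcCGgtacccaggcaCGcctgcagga
Robo4 (GRCm38.p6, chr9:37401722-37402021, plus strand): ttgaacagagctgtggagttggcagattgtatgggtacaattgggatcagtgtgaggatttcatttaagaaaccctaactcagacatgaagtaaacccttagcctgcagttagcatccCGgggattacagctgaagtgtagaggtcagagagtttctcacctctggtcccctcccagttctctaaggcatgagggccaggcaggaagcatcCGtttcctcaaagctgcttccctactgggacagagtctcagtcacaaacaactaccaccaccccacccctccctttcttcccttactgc
Slit2 (GRCm38.p6, chr5:47982905-47983204, plus strand): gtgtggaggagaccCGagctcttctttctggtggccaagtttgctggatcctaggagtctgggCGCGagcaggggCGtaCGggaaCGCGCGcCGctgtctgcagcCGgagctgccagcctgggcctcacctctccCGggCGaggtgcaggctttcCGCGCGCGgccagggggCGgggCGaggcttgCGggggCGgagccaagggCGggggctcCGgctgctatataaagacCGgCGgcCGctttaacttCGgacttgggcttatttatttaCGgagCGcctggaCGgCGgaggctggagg
Epha2 (GRCm38.p6, chr4:141300971-141301270, plus strand): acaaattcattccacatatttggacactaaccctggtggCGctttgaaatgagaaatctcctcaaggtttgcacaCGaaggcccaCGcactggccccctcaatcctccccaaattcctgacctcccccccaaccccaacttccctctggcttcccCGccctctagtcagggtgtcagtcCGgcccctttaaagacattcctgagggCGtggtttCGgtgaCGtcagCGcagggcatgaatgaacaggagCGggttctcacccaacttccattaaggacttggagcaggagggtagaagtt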

How the data were processed

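Total RNA was labelled with Cy3 and read on 1 one-colour Agilent array per day. Per the file headers, both arrays were of design 014868, on 1 slide read in 1 scan, with intensities extracted by Feature Extraction 9.5.3.1 using extended dynamic range and detrending; array position and day cannot be told apart. The deposited intensity of a spot is background-subtracted, and its error includes a multiplicative term of 0.1, per the file headers. The authors also deposited a log2 value table, whose making the labels do not describe. Its day 6 and day 0 columns had the same distribution, as quantile normalization gives (medians 8.53 and 8.53, sorted values at most 0.000469 apart). Its differences correlated with those of the scanner files at 0.989 across probes. It served as an alternative that nearly repeats the one with quantile normalization.

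Control spots and outlier spots (216 on day 6, 186 on day 0) were left out, spots of a probe were averaged on the log2 scale, and each array's 75th percentile (4371 on day 6, 3746 on day 0) was subtracted. Intensities printed are unscaled; folds are scaled. Probes well above background numbered 26896 on day 6 and 25246 on day 0, and 5 and 9 were saturated; no guidance probe was saturated. Precision is limited by having so few arrays. A gene took its brightest probe among those well above background on at least 1 array. Other genes were named through RefSeq (GRCm38.p6), as were promoters. Genes were counted at 2-fold and 4-fold; those dim on 1 array were counted by their bound. The families and gene lists were chosen with earlier results of these data known. The counting was tested on simulated data. Python 3.11.15, numpy 2.4.6 and pandas 2.3.3 were used, with limma 3.58.1 for normexp. Alternatives changed the background correction, scaling, filter, probe choice and fold.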

Additional observations from a re-analysis of the deposited data

How the results depend on the processing

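No paired analysis was possible because each group had 1 array, and for the same reason no replicate could be left out. Setting dim genes at their bound could not change the counts of 33 higher and 8 lower guidance genes, because calls already use the bound. With that setting included, these counts stayed within 1.5 times under the 10 alternatives that kept genes and 2-fold (26 to 33 higher, 7 to 9 lower). Counted at 4-fold they were 19 and 5, and for the other guidance genes 20 and 1; counting probes, chosen after seeing the data, gave 55 higher, with more items counted by construction. The dimmest probe per gene gave 7 lower other guidance genes. Of the 41 genes at least 2-fold apart, 11 lost the call in at least 1 alternative that measured them (Efna5, Epha3, Epha4, Ephb6, Nrp1, Robo2, Sema3b, Sema3e, Sema3g, Sema4b and Sema6a). Only Sema6a changed sign, at -0.22 with its dimmest probe. Apart from these losses, requiring signal on both arrays left out the 8 genes seen on day 6 only, of which 7 had been called higher. In the alternatives that measured them, Epha3, Robo2 and Sema3e lost the call only with the dimmest probe. The bound of that probe was short of 2-fold (log2 bounds 0.0, 0.78 and -0.66), while its measured log2 difference was 1.98, 3.08 and -2.63.

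Medians that moved by more than the software error were as follows, with the cause not tested except that filters, bounds and probe choices use other values by construction. For the guidance genes together, normexp gave 1.06, leaving the background in gave 1.06, requiring signal on both arrays gave 1.08 and dropping the filter gave 1.12. With normexp, medians were 1.63 for Epha, 0.86 for Ephb, 1.05 for Sema3, 0.47 for Sema4 to Sema7, 1.65 for Slit and 1.93 for Unc5, and with the background left in 1.37, 0.79, 1.03, 0.46, 1.57 and 1.81. Where signal on both arrays was required, the Epha median reversed to -1.48, and those of Ephb, Robo and Unc5 were 0.47, 0.60 and 0.27. With no filter, Epha, Plxn and Unc5 stood at 1.08, 1.2025 and 1.06, and the all-gene median at -0.28. Averaging each gene's probes, Plxn stood at 1.45, and with the dimmest probe Epha and Sema4 to Sema7 at 1.98 and 0.35. With dim genes at their bound, Epha and Ephb stood at 1.08 and 1.21. Under median scaling the all-gene median was -0.21, and under it Epha4 and Sema3b came just under 2-fold. Under median scaling, 41.7% of all genes at least 2-fold apart were higher. Signal over background limits the 8 genes seen on day 6 only, for which a bound is all that is known.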
